A study of Bos taurus with 14 samples.

Results

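Genome activation in the oviduct of non-lactating cows was followed by setting 16-cell bovine embryos recovered on Day 4 from those oviducts (DRY, n = 3) against 4-cell embryos of the same in vitro production system frozen on Day 2 (n = 5). These 8 libraries were chosen by their group labels from the 14 of the series, and each was made from a pool of 5 embryos. All oocytes came from abattoir ovaries and were fertilised with semen of 1 bull. For DRY, embryos at the 2- to 4-cell stage were placed on Day 2, in groups of 50, into oviducts of postpartum primiparous Holstein–Friesian cows that had never been milked after calving, and were flushed out on Day 4. Day-2 embryos therefore had only in vitro culture behind them, whereas DRY embryos had both in vitro culture and the oviduct, so that developmental time and environment cannot be told apart between these groups. The other Day-4 embryos stayed in culture (IVC, n = 3) or came from oviducts of cows milked since calving (LACT, n = 3), and serve here only to show where DRY stood apart. The embryos of a DRY pool shared a cow, and it is not stated whether the pools of Day-2 embryos were separate cultures, so that the p values measure the spread between these pools.

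Before its own genome is transcribed at scale, the cleaving embryo runs on RNA and protein laid down in the oocyte. Maternal transcripts are then cleared while the embryonic genome is switched on, and in cattle the major wave of this switch falls around the stage reached by the Day-4 embryos. The new transcripts are known to include those for ribosomes, RNA processing and energy metabolism, and the cleared ones many regulators of oocyte maturation and of the first cell divisions.

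Total counts were 27790816 to 30120040 per Day-2 library and 28465110 to 40357379 per DRY library. A signal of 3 counts, the highest taken as not detected, was 0.0744 to 0.104 CPM (counts per 1000000 counts of a library, after TMM scaling over the 8 libraries) on Day 2 and 0.0913 to 0.127 CPM in DRY. Reads are not independent molecules, so these limits and the intervals below reflect counting error alone. In the DRY group, replicate 3 lay between replicates 1 and 2 for 97.5% of 8001 genes and within 5% of their mean for 83.2%. It was not simply their mean, since 386 genes at 0 in replicates 1 and 2 had at least 1 CPM in replicate 3, and 189 genes at 0 in replicate 3 had a mean of at least 1 CPM in the others. All tests below therefore used DRY replicates 1 and 2, while the level of replicate 3 is printed in every case. A related pattern was seen on Day 2, where the mean of replicates 1 and 5 and the mean of replicates 2, 3 and 4 were within 5% of each other for 72.2% of 7998 genes, against 10.2% to 14.6% for the 9 other ways of choosing 2 of the 5. Moreover, 622 genes were at 0 in replicates 1 and 5 with a mean of at least 1 CPM in the other 3 (33 to 55 genes for the other 9 pairs). Results are therefore also given for the Day-2 group cut to replicates 2, 3 and 4 or to replicates 1 and 5 where they changed. The origin of these patterns was not tested. Separately, the cell types of the pools could not be examined, since the lists of marker genes could not be matched to the gene identifiers used.

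Of 12380 genes tested between DRY and Day 2, 4688 (37.9%) differed with a false discovery rate under 0.05 (edgeR's quasi-likelihood test, hereafter called). Levels of 2261 genes (18.3%) were called higher in DRY and those of 2427 (19.6%) lower, while 5845 genes had an unadjusted p under 0.05. The changes were large. Genes called higher had a median log2 fold change of 4.64 (quartiles 2.67 and 6.81) and genes called lower of −3.34 (quartiles −6.01 and −2.19), and the smallest change called was 0.61 in size, with a median SE of 0.72 over the called genes. Over all genes tested the median was −0.29. A log2 fold change of at least 4 was reached by 1291 (57.1%) of the genes called higher and 962 (39.6%) of those called lower. CPM are shares of a library, so that the total RNA of an embryo, the number of cells and the RNA per cell cannot be told apart in these values.

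All 3 DRY libraries lay above or below all 5 Day-2 libraries for 6977 genes (56.4% of those tested), with DRY above for 3464 and below for 3513. This held for 2246 (99.3%) of the genes called higher, for 2363 (97.4%) of those called lower, and also for 2368 genes that were not called. The median absolute log2 difference between libraries was 1.67 to 1.87 over the 15 pairs of a Day-2 and a DRY library and 0.391 to 0.933 over the 10 pairs of Day-2 libraries. It was 0.709 between DRY replicates 1 and 2. The pairs with DRY replicate 3, which lay between those replicates, gave 0.409 and 0.360 and do not measure separate spread. With all 8 libraries in the test, 5910 of 11474 genes (51.5%) were called, including 4532 of the 4688 in the same direction and 0 in the other. With the Day-2 group cut to replicates 2, 3 and 4, 3882 genes were called, 3639 of them among the 4688. With Day-2 replicates 1 and 5 alone the count was 1573, of which 1532 were among the 4688. Without DRY replicate 1, 1424 genes were called higher in place of 2261.

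**Figure D1:**
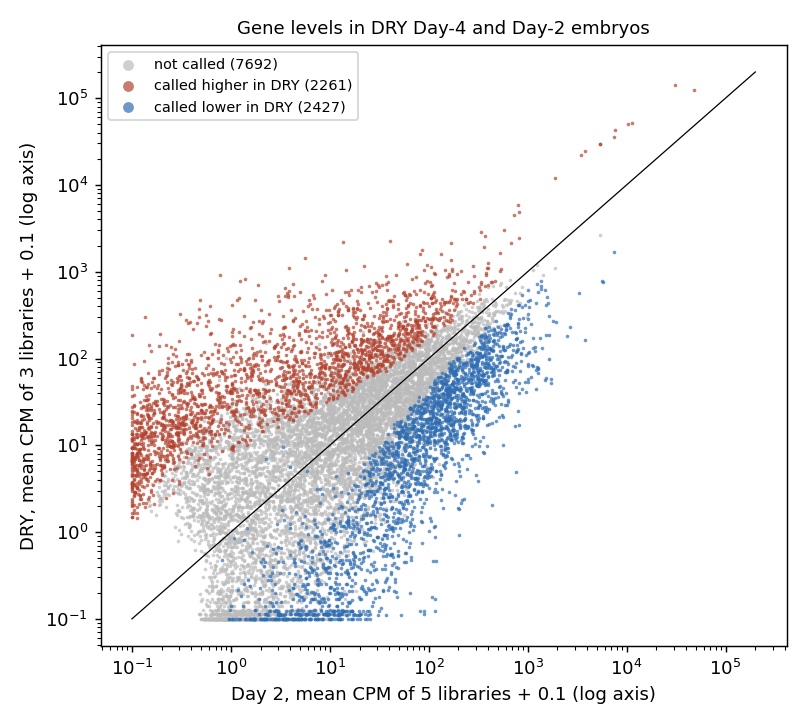
Mean CPM of each of the 12380 genes tested in the 5 Day-2 libraries (horizontal log axis, CPM + 0.1) and in the 3 DRY libraries (vertical log axis, CPM + 0.1), with the line of equal levels. The 2261 genes called higher in DRY lie above the line, many of them from near 0 on Day 2, and all but a few of the 2427 called lower lie below it, where the means include DRY replicate 3 and the test does not.

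Genes at 1000 CPM or more in either group were mostly called lower in the other. By Day-2 level, of the 70 genes with a Day-2 mean of at least 1000 CPM, 77.1% were called lower and 15.7% higher, and the median log2 fold change was −2.43. Among 1798 genes at 100 to 1000 CPM on Day 2, 56.7% were called lower and 7.23% higher (median −1.46). In the class of 10 to 100 CPM (4613 genes) the shares were 21.5% lower and 14.1% higher, and in that of 1 to 10 CPM (3793 genes) 9.28% lower and 14.3% higher. Of 2106 genes with a Day-2 mean under 1 CPM, 44.2% were called higher. Sorted by DRY level instead, the picture was the mirror image. Of 51 genes with a DRY mean of at least 1000 CPM, 90.2% were called higher and 1.96% lower, and of 1601 genes at 100 to 1000 CPM in DRY, 47.9% were called higher and 12.8% lower. Either sorting uses 1 side of the fold change that was tested, and genes low in 1 group passed the filter on low counts mostly through the other, so these shares describe the turnover and show no dependence on the starting level.

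**Figure D2:**
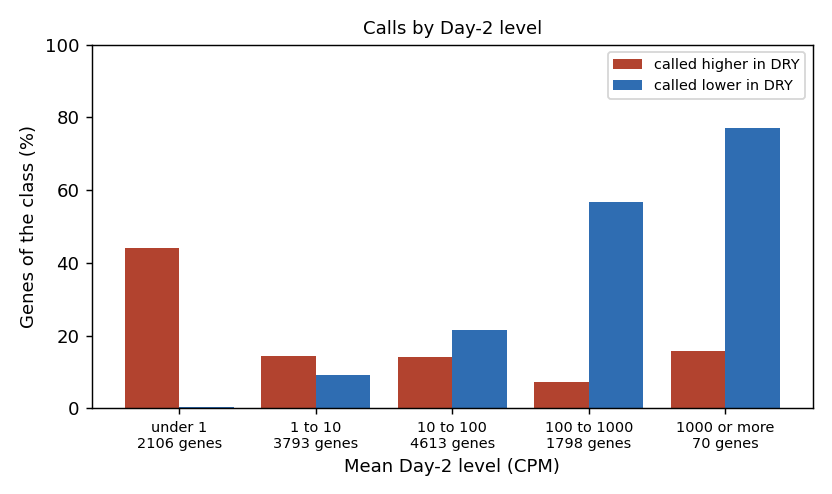
Share of genes called higher (red) and lower (blue) in DRY, in percent of each class of mean Day-2 CPM, with the number of genes under each class. The share called lower is 0.380% under 1 CPM and 77.1% at 1000 CPM or more, where the classes rest on the same Day-2 values as the fold change, and it is 1.96% of the genes at 1000 CPM or more when genes are sorted by DRY level.

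The abundant transcripts were largely replaced. At a mean of at least 100 CPM stood 1868 genes on Day 2 and 1667 in DRY, of which 786 were shared, and at 1000 CPM or more 70 and 52 genes, of which 16 were shared. The 100 most abundant genes of each group had 23 in common. At the very top the groups were more alike, with 6 of the 10 most abundant genes shared. All of the 10 most abundant genes in DRY were called higher there, among them the mitochondrial genes COX3 and CYTB. The others, to which no symbol was matched, have identifiers in the same run as the mitochondrial genes named below. The 6 shared genes are also of that run. The top 10 of each single library held 42.7% to 46.8% of its counts in DRY against 12.5% to 20.1% on Day 2. Of the 10 most abundant on Day 2, 6 were called higher and 3 lower in DRY. At the extremes, 61 genes had at most 3 counts in every Day-2 library and at least 10 CPM in every DRY library (median 22.8 CPM in DRY, highest 184). The converse held for 20 genes (median 21.2 CPM on Day 2, highest 117).

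Energy metabolism, mTOR signalling and translation initiation were examined through 25 genes that the study pairs with identifiers. The study picked them for differences among Day-4 groups that included these DRY libraries, so their values are not independent evidence, and no p was adjusted over them alone. Of the 25, 12 were called higher and 13 were not called, and 16 had no overlap between the groups. Over all genes tested the shares were 18.3% called higher and 56.4% without overlap, so that the count without overlap was near the share of all genes.

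Oxidative phosphorylation passes electrons through respiratory complexes in the inner mitochondrial membrane and uses the resulting proton gradient to make ATP. Of 9 genes of this group, 8 were called higher in DRY and none lower, with a median log2 fold change of 2.76, against −0.29 for all genes tested. The nuclear gene ATP5MF encodes a membrane subunit of ATP synthase. Its level on Day 2 was 2.07, 2.90, 1.64, 1.49 and 1.49 CPM in replicates 1 to 5, and in DRY it was 117, 99.4 and 103 CPM in replicates 1 to 3. The groups were far apart, with a log2 fold change of 5.85 ± 0.47 (SE; adjusted p = 8.7e-05). SDHD, a membrane anchor of succinate dehydrogenase, stood at 4.72, 1.80, 5.48, 1.14 and 0.992 CPM on Day 2 and at 122, 92.2 and 102 CPM in DRY. Its log2 fold change of 5.27 ± 0.75 (adjusted p = 0.0013) was again without overlap. COX11, a copper chaperone needed to assemble cytochrome c oxidase, varied more on Day 2, with 0.952, 0.367, 7.33, 4.05 and 6.48 CPM, and reached 52.8, 68.8 and 58.5 CPM in DRY. Its difference of 4.02 ± 0.999 (adjusted p = 0.0149) was no longer called without DRY replicate 1 or DRY replicate 2 (adjusted p = 0.0598 and 0.0802) or with Day-2 replicates 1 and 5 alone. ATP6V0A2, a subunit of the vacuolar proton pump rather than of the respiratory chain, was not called, with 7.79 to 42.4 CPM on Day 2 and 28.2 to 50.2 CPM in DRY (0.80 ± 0.70, adjusted p = 0.386).

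The other 5 genes of this group are encoded in mitochondrial DNA, and all 5 were called higher. Their share of all counts was 0.906% to 2.57% in the Day-2 libraries and 6.82% to 7.02% in the DRY libraries. COX3, a core subunit of cytochrome c oxidase, stood at 10193, 4577, 6419, 11672 and 4167 CPM on Day 2 and at 38022, 34642 and 34571 CPM in DRY (log2 fold change 2.33 ± 0.40, adjusted p = 0.0029). CYTB, the cytochrome of complex III, stood at 7933, 2361, 5259, 8545 and 2567 CPM on Day 2 and at 28453, 31636 and 28754 CPM in DRY (2.53 ± 0.49, adjusted p = 0.0051). Day-2 replicates 2 and 5 were the lowest for both genes, and also for ND6, ND4L and ATP8, whereas the DRY libraries were close to each other. ND6, a subunit of complex I, ranged from 458 to 3125 CPM on Day 2 and from 11793 to 12434 CPM in DRY (2.76 ± 0.66, adjusted p = 0.0129), and was not called without DRY replicate 1 or DRY replicate 2 (adjusted p = 0.0690 and 0.0660) or with Day-2 replicates 1 and 5 alone (0.0538). ND4L, also of complex I, differed by 2.66 ± 0.49 (adjusted p = 0.0043), and ATP8 of ATP synthase by 3.14 ± 0.48 (adjusted p = 0.0018). The genes ND4L and ATP8 overlap neighbouring mitochondrial genes, and the strand setting of the counting is not stated, so that reads of overlapping or antisense transcripts may be included.

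The mTOR pathway couples nutrients to growth. Amino acids are sensed at the lysosome, where the Ragulator complex holds the Rag GTPases that recruit mTOR complex 1, and mTOR complex 2 is a separate assembly. Of 10 genes, 3 were called higher and 7 were not called, and the median log2 fold change was 0.34, beside 18.3% of all genes called higher and 19.6% lower. The largest increases were in RRAGB and LAMTOR4, which belong to the lysosomal platform. RRAGB, a Rag GTPase, had 0, 0, 0.0298, 0 and 0 CPM on Day 2, which is 1 count in all, and 61.9, 14.8 and 37.2 CPM in DRY, from 2884 counts. The ratio of summed counts over TMM-scaled library sizes was 5871, with a 95% exact interval from counting error alone of 1053 to 231977, and the adjusted p was 0.000428. LAMTOR4, a Ragulator subunit, had 0, 4.06, 2.15, 1.42 and 0 CPM on Day 2 and 27.1, 230.3 and 139 CPM in DRY. The DRY replicates differed widely for it, and its difference of 6.42 ± 1.76 (adjusted p = 0.0220) fell to 4.00 without DRY replicate 2 (adjusted p = 0.251). RICTOR, the defining subunit of mTOR complex 2, rose from 65.4, 107, 104, 52.4 and 93.3 CPM on Day 2 to 213, 168 and 181 CPM in DRY (1.21 ± 0.34, adjusted p = 0.0243). That call was lost without DRY replicate 1, DRY replicate 2 or Day-2 replicate 1 (adjusted p = 0.207, 0.0808 and 0.0810) and with either reduced Day-2 group (0.129 with replicates 2, 3 and 4, and 0.142 with replicates 1 and 5), and its adjusted p was the highest of the 12 genes called.

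RRAGD, a partner Rag GTPase, was at 36.0 to 220.2 CPM on Day 2 and 22.3 to 28.6 CPM in DRY without overlap, but was not called (−2.04 ± 0.76, adjusted p = 0.0658). It passed the threshold with all 8 libraries, and also without Day-2 replicate 1 or Day-2 replicate 3 (adjusted p = 0.0427 and 0.0360). SESN2, a stress-induced leucine sensor that restrains mTOR complex 1, ranged from 42.4 to 115 CPM on Day 2 and stood at 48.1, 8.86 and 28.0 CPM in DRY (−1.56 ± 0.72, adjusted p = 0.122). Without DRY replicate 1 it was called lower, at −3.46 (adjusted p = 0.0192), and with all 8 libraries at −1.58 (adjusted p = 0.0452). TTI1, which helps to assemble mTOR and related kinases, was at 1.04 to 16.6 CPM on Day 2 and 34.9 to 36.8 CPM in DRY without overlap, and was not called (2.08 ± 1.004, adjusted p = 0.135). The remaining genes overlapped between the groups. They were AKT1S1, an inhibitory subunit of mTOR complex 1 (log2 fold change 0.73), TBC1D7 of the TSC complex (−0.32), the lysosomal arginine sensor SLC38A9 (−0.17) and MIOS of the GATOR2 complex (−0.06). MIOS was the steadiest of these, with 61.0 to 79.9 CPM on Day 2 and 62.2 to 66.7 CPM in DRY.

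Translation starts when initiation factors bring the initiator tRNA and messenger RNA to the small ribosomal subunit. Among 6 initiation genes, EIF3J was called higher and 5 were not called (median log2 fold change 0.64), which is near the 18.3% called higher over all genes. EIF3J, a loosely held subunit of the eIF3 complex, stood at 26.9, 22.4, 27.8, 26.6 and 19.9 CPM on Day 2 and at 55.3, 147 and 101 CPM in DRY (2.06 ± 0.43, adjusted p = 0.0067). All DRY values were above all Day-2 values, but without DRY replicate 2 the difference was 0.97 and was not called (adjusted p = 0.118), nor was it with either reduced Day-2 group. EIF3F, at 3.52 to 41.6 CPM on Day 2 and 78.5 to 84.2 CPM in DRY, did not overlap and was not called (2.08 ± 0.82, adjusted p = 0.0784), though it passed with all 8 libraries and without Day-2 replicate 4 (adjusted p = 0.0491). EIF2S1, the alpha subunit of eIF2, showed 49.6 to 80.8 CPM on Day 2 and 82.2 to 109 CPM in DRY (0.52 ± 0.35, adjusted p = 0.256). EIF3CL, which shares near-identical sequence with EIF3C and is uncertain for that reason, differed by 0.77, EIF3B by 0.46 and EIF3E by −0.28 on the log2 scale, and the groups overlapped for all 3.

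**Figure D3:**
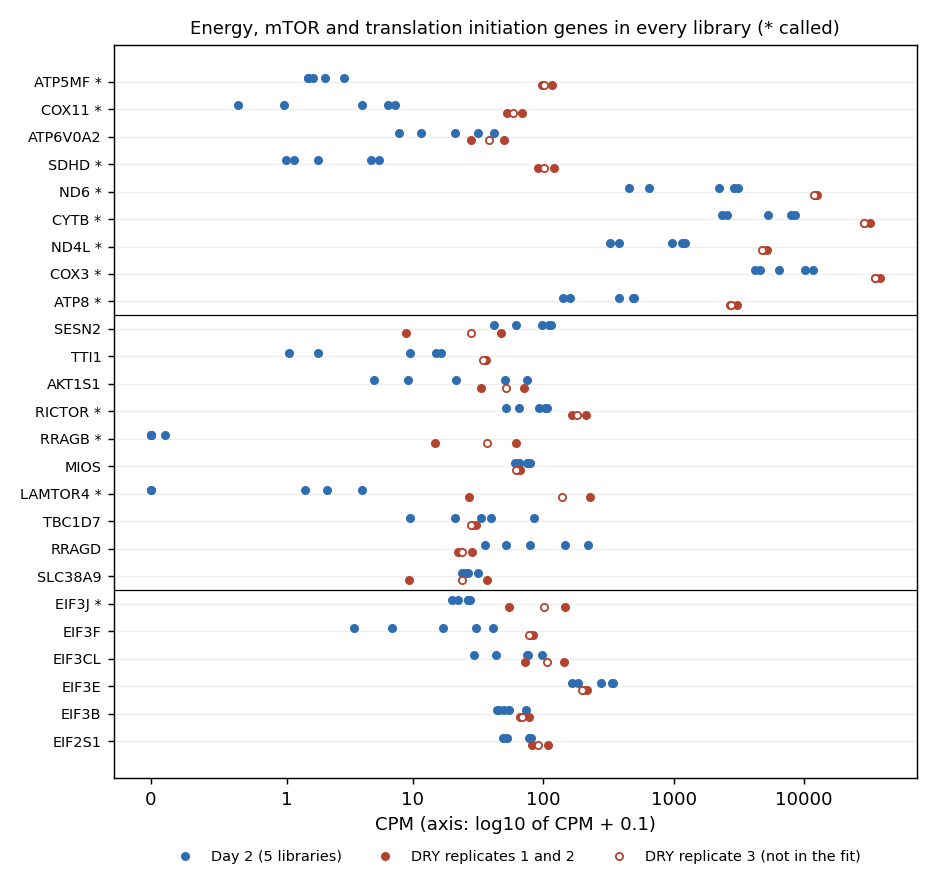
CPM of the 25 genes in every library on an axis of log10(CPM + 0.1), grouped as oxidative phosphorylation (top), mTOR pathway and translation initiation (bottom), with Day 2 in blue, DRY replicates 1 and 2 in filled red and DRY replicate 3 in open red. An asterisk marks the 12 genes called, and DRY lies to the right of Day 2 for each of them.

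A wider view was taken through 45 lists of genes that the study grouped under functional terms. The study formed these lists from genes that changed with time or differed among the groups on these same libraries, so the direction of most lists was fixed by that choice, and 7 of them hold only part of a longer list. They are given as a description. The lists held 556 genes, of which 546 were tested, 238 called higher and 174 lower, against 18.3% and 19.6% of all genes. With Day-2 replicates 1 and 5 alone, 183 genes of the lists were called in place of 412.

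The cytosolic ribosomal protein genes in the study's lists rose almost without exception. The study drew these lists from genes higher on Day 4 than on Day 2, so that direction was fixed by the choice. All 19 tested genes of the cytosolic small subunit were called higher, their median log2 fold change was 4.44, and their summed level went from 452 to 632 CPM on Day 2 to 8264 to 10342 CPM in DRY. For the large subunit, 33 of 34 were called higher (median 4.25), with sums of 944 to 1289 CPM on Day 2 and 9320 to 9813 CPM in DRY. The Day-2 and DRY sums of both lists were far apart relative to their spread. Genes for the large subunit of the mitochondrial ribosome were called higher in 12 of 20 cases (median 3.33), with sums of 54.2 to 176 CPM on Day 2 and 808 to 945 CPM in DRY. That count was 4 without DRY replicate 1 and 7 without DRY replicate 2, where the lone DRY library was taken to vary like the Day-2 libraries. Initiation factors were called higher for 14 of 19 (median 2.10, and 9 of them called without DRY replicate 1), and the eIF3 complex for 7 of 13 (median 2.06).

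Lists of ribosome assembly and RNA metabolism, also drawn from genes higher on Day 4, went the same way. The processome that matures the small subunit had 15 of 20 genes called higher (median 2.57), the precursors of the large subunit 5 of 9 (median 2.65, and 3 without DRY replicate 1), and binders of small nucleolar RNA 6 of 11 (median 3.00). Subunits of DNA-directed RNA polymerase had a median of 5.88, with 6 of 8 called higher (median 2.87 for the 4 members left when at least 10 counts were required in every library) and sums of 47.7 to 63.7 CPM on Day 2 against 498 to 797 CPM in DRY. Sm-domain proteins, which form the core of spliceosomal particles, were called higher for 8 of 12 (median 2.94), and the U4/U6.U5 tri-snRNP for 11 of 14 (median 2.12). Without DRY replicate 1 these counts were 3 and 4, and without DRY replicate 2 they were 4 and 5. Transport of mRNA had 16 of 17 genes called higher (median 3.04, and 9 without DRY replicate 1). Among genes for the removal of RNA, the P-body list had 13 of 18 called higher (median 3.22, and 6 without DRY replicate 1) and RNA degradation 15 of 18 (median 2.47, with 8 and 9 without DRY replicate 1 or DRY replicate 2).

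Lists of the respiratory chain, which hold some of the genes named above such as COX3 and CYTB, showed the same direction. Complex I had 10 of 19 genes called higher (median 2.97), complex III 6 of 7 (median 4.13), complex IV 6 of 8 (median 3.56) and ATP synthase 12 of 14 (median 3.74). The summed level of complex I was 4339 to 15595 CPM on Day 2 and 60452 to 64292 CPM in DRY, while the median gene of the list went from 2.38 to 24.8 CPM. These lists came from genes higher on Day 4 than on Day 2, so that direction was fixed by the choice. All 5 genes listed for the citrate cycle were called higher (median 3.58), with sums of 17.6 to 30.7 CPM on Day 2 and 337 to 486 CPM in DRY. The study drew the citrate cycle list from Day-4 genes highest in DRY, so its members were chosen through these same DRY libraries. Leaving out DRY replicate 1 reduced the counts to 4 for complex I, 5 for ATP synthase and 3 for the citrate cycle.

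The protein turnover lists split into 2 directions, which are those of the study's clusters they were drawn from. Chaperones and the proteasome came from genes higher on Day 4, and ubiquitin-mediated proteolysis from genes lower on Day 4. Chaperones were called higher for 16 of 20 (median 2.92, with 9 and 10 without DRY replicate 1 or DRY replicate 2) and the proteasome for 7 of 14 (median 2.25, with 3 without DRY replicate 1 and 12 with all 8 libraries). By contrast, the list for ubiquitin-mediated proteolysis, which holds the enzymes that mark proteins for the proteasome, had 13 of 20 called lower and none higher (median −2.02), with sums of 8040 to 12240 CPM on Day 2 and 2924 to 4745 CPM in DRY.

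Cell division lists fell. Of the cell cycle list, 15 of 19 genes were called lower (median −1.80), and the summed level went from 5774 to 8893 CPM on Day 2 to 1295 to 2124 CPM in DRY. Spindle pole genes were called lower for 15 of 19 (median −2.13), genes of the centriolar satellites for 14 of 17 (median −2.29) and of the cleavage furrow for 8 of 10 (median −2.71, with 5 called without Day-2 replicate 2). These lists came from genes lower on Day 4, so their direction was fixed by that choice. A further cell division list had 7 of 14 called lower (median −0.91), and repair by homologous recombination 2 of 6 (median −0.65). The study drew both of these from genes lower in DRY than on Day 2 but higher than in IVC and LACT. A smaller fall in DRY was therefore part of that choice.

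Listed genes of the cortex and of cell contacts, which the study also drew from genes lower on Day 4, fell as well. All 20 genes listed for actin binding were called lower (median −2.70), with sums of 4128 to 5418 CPM on Day 2 and 1221 to 1582 CPM in DRY. The myosin complex had 9 of 10 called lower (median −3.16), and its sums of 1103 to 1644 CPM on Day 2 and 138 to 158 CPM in DRY did not overlap. The cell cortex list had 13 of 18 called lower (median −2.70), adherens junctions 13 of 16 (median −2.23) and tight junctions 8 of 9 (median −2.89). Among vesicle lists, the HOPS complex, which tethers membranes at the lysosome, had 5 of 6 called lower (median −3.14, with 3 without Day-2 replicate 2 or Day-2 replicate 5). Other surface and secreted lists rose instead. Of the integrin binding list 6 of 9 were called higher (median 1.59), of the apical plasma membrane list 11 of 21 (median 2.12, with 6 without DRY replicate 1), and of the extracellular exosome list 5 of 8 higher and 1 lower (median 2.50).

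The bromodomain, HMG-box and basal transcription factor lists came from genes lower on Day 4, so their direction was fixed by that choice. The bromodomain list had 9 of 10 called lower (median −1.51), HMG-box proteins 8 of 13 (median −2.39) and basal transcription factors 6 of 9 (median −1.89). The list of proteins with a histone fold did not move as a unit, with 4 of 11 called higher, 1 lower and a median of 3.59, and without DRY replicate 1 or DRY replicate 2 only 1 member was called. With at least 10 counts required in every library 5 members were left and the median was −0.07. Its summed level nevertheless went down, from 1093 to 2309 CPM on Day 2 to 265 to 304 CPM in DRY. A lone abundant member accounts for that sum, at 1024, 2054, 1103, 1833 and 2249 CPM on Day 2 and 61.2, 135 and 97.5 CPM in DRY (−4.04 ± 0.53, adjusted p = 0.000878). No symbol was matched to it.

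Signalling lists mostly fell. Genes of FoxO signalling, which links insulin and stress to transcription, were called lower for 16 of 19 (median −2.42), and those under regulation of pluripotency for 16 of 20 (median −2.54). A list of mTOR signalling genes, which holds only part of a longer list, had 15 of 20 called lower and none higher (median −2.12). The study drew the FoxO, pluripotency and mTOR lists from genes lower on Day 4 than on Day 2. Their direction was fixed by that choice. For fatty acid metabolism, 2 of 7 genes were called higher and 5 lower (median −2.71). With at least 10 counts required in every library, 4 of these 7 genes were left and the median was 0.39.

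**Figure D4:**
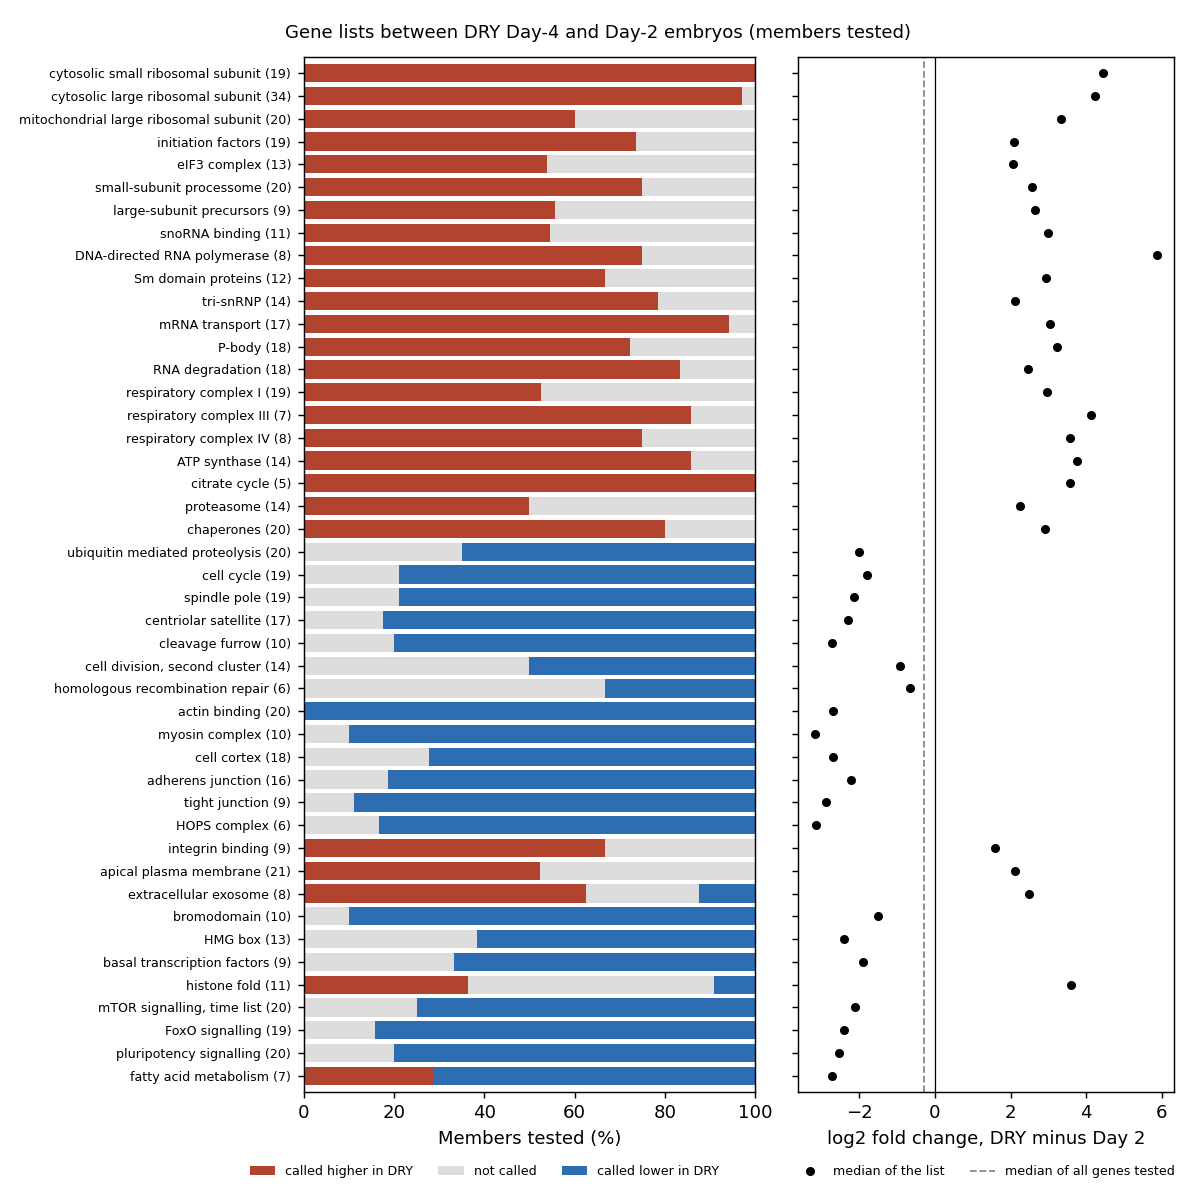
Left, share of the tested members of each of the 45 lists called higher (red), not called (grey) or lower (blue) in DRY, in percent, with the number of members tested in parentheses. Right, the median log2 fold change of each list, with a dashed line at −0.29, the median of all genes tested. Ribosomal, RNA and respiratory lists lie to the right of the line, and cell division, cortex and signalling lists to its left.

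The genes with the largest changes had no symbol in the tables used, where only 25 genes have one. Among genes without overlap and with at least 10 CPM in the higher group, 1970 were called higher and 2054 lower. The 10 with the largest increase had means of 0 to 0.0367 CPM on Day 2 and 22.3 to 301 CPM in DRY, and 1 of them, at 30.2 and 51.8 CPM in DRY replicates 1 and 2, had 1 count (0.0424 CPM) in DRY replicate 3. The 10 with the largest decrease had means of 37.1 to 116 CPM on Day 2 and were at 0 in DRY replicates 1 and 2, but at 0.212 to 17.3 CPM in DRY replicate 3. With all 8 libraries 3 of these 10 were not called (adjusted p = 0.146 to 0.177). Fitted fold changes of such genes depend on the prior count and are not bounds.

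A pair in each direction is named, picked after their values were seen as the first of each 10 that were also called against IVC and LACT. ENSBTAG00000003155 had 0 counts in every Day-2 library and stood at 251, 120 and 182 CPM in DRY. With 3 counts taken as the limit in every Day-2 library, the ratio of the group means was at least 1999, which is not a bound for each library. ENSBTAG00000010666 had 6 counts over the Day-2 libraries and stood at 177, 424 and 302 CPM in DRY (12.89 ± 1.05, adjusted p = 0.000106). In the other direction, ENSBTAG00000012014 went from 141, 138, 117, 103 and 80.9 CPM on Day 2 to 0, 0 and 0.212 CPM in DRY. ENSBTAG00000001243 went from 88.7, 55.2, 93.6, 42.2 and 35.8 CPM to 0, 0 and 1.69 CPM. Both remained lower with all 8 libraries, by −10.70 and −6.80 on the log2 scale (adjusted p = 6.5e-05 and 0.0082).

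Most of what separated DRY from Day 2 was not called between DRY and the other Day-4 groups. The Day-4 groups were fitted with Day 2 after leaving out 1 library of each that lay between the other libraries of its group, and these comparisons share the DRY libraries. Of 13908 genes, 80 (0.575%) were called between DRY and IVC, 17 higher and 63 lower in DRY, and 45 (0.324%) between DRY and LACT, 5 higher and 40 lower. At an unadjusted p under 0.05 the counts were 1508 and 1248. DESeq2 called 913 and 703 genes, and the likelihood ratio test of edgeR, run with observation weights, 476 and 380, so the counts depend on the test. Without DRY replicate 1 they were 26 and 11. Against Day 2, the same fit called 5001 genes for DRY, 5198 for IVC and 5111 for LACT. Each Day-4 group entered with fewer libraries than Day 2, so counts between Day-4 groups and counts against Day 2 differ in power. With all 14 libraries, 825 genes were called between DRY and IVC and 556 between DRY and LACT. With at least 10 counts required in every library, both counts were 0. That filter left 6647 genes and removes any gene near 0 in a library. The genes called without it had a median absolute log2 difference of 10.7 against IVC and 11.1 against LACT, and many were near 0 in a group.

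Of the 80 genes that set DRY apart from IVC, 57 were also called between DRY and Day 2, 9 of them higher and 48 lower than on Day 2, while 7 were not called and 16 were not tested there. Of the 45 that set it apart from LACT, 31 were called, 5 higher and 26 lower, while 1 was not called and 13 were not tested. The share called over all genes was 37.9%. A set of 31 genes was called against both groups, 4 of them higher in DRY than in each, 26 lower than in each and 1 with opposite signs. Of the calls against IVC, 13 rested on genes at 0 in DRY replicates 1 and 2 with counts in DRY replicate 3, and of those against LACT, 6. With all libraries, 68 of the 80 and 40 of the 45 were called in the same direction. The 4 genes named above are among them. ENSBTAG00000003155 exceeded IVC by 12.70 and LACT by 11.98 on the log2 scale (adjusted p = 0.00822 and 0.0128), and ENSBTAG00000012014 was lower by −10.82 and −9.15 (adjusted p = 0.0135 and 0.0427).

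None of the 25 energy, mTOR and initiation genes was called between DRY and IVC or LACT by edgeR's quasi-likelihood test. Their adjusted p values were 0.218 or more against IVC, with 6 genes at an unadjusted p under 0.05, and 0.501 or more against LACT, with 2 such genes. DESeq2 called 4 of the 25 against IVC and 0 against LACT, and the likelihood ratio test 2 and 0. The lowest adjusted p against IVC belonged to LAMTOR4, which stood at 0 to 0.0481 CPM in IVC, 0.220 to 10.9 CPM in LACT and 25.3 to 203 CPM in DRY on the scale of 14 libraries. COX3 stood at 29409.6 to 35478 CPM in DRY, at 20874 to 22757 CPM in IVC and at 15427 to 21326 CPM in LACT, and was not called (DRY minus IVC 0.58 ± 0.48, adjusted p = 0.772, and DRY minus LACT 0.84 ± 0.49, adjusted p = 0.671). The other 4 mitochondrial genes had adjusted p values of 0.821 to 0.982 against IVC, and for ND6 and ND4L the DRY and IVC libraries overlapped. RRAGD was at 37.5 to 227 CPM on Day 2, 19.7 to 26.7 CPM in DRY, 0.918 to 5.57 CPM in IVC and 3.25 to 6.79 CPM in LACT. DRY thus lay between Day 2 and the other Day-4 groups for this gene, without overlap among the libraries, and the differences were not called (2.84 ± 0.99 against IVC, adjusted p = 0.314, and 2.20 ± 0.96 against LACT, adjusted p = 0.519).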

How the data were processed

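RNA was sequenced from 14 bovine embryo pools with a NuGEN Encore Complete library system on an Illumina instrument, of which the 5 Day-2 and 3 DRY libraries are compared here. The authors deposited raw read counts per Ensembl gene for 27607 genes, made, per the labels and the study's methods, with FastQC 0.11.9, Trimmomatic, STAR 2.7.0b on bosTau9 and featureCounts of Subread 2.0.3. The kit keeps strand, and the strand setting of the counting and the annotation release are not given in the sources used here.

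Counts were analysed in R 4.3.3 with edgeR 4.0.16 and DESeq2 1.42.0, and in Python 3.11.15. Genes reaching 1 CPM in at least 2 of the 7 libraries of the fit were kept, scaled by TMM and tested with edgeR's robust quasi-likelihood test and Benjamini-Hochberg adjustment over all genes tested. DRY replicate 3 was left out by a rule set for libraries that lie between the others of their group for over 90% of genes with at least 5 CPM. The SE is the log2 fold change divided by the square root of the F statistic. A ratio with 1 to 3 counts has an exact 95% interval. The DRY, IVC and LACT contrasts came from a fit of 11 libraries.

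Named genes are the 10 changed most in each direction without overlap and with at least 10 CPM in the higher group, the 10 most abundant of each group, and 25 genes the study pairs with identifiers (1 further gene is not reported here). Of genes without a symbol, at most 2 that rose and 2 that fell are named. No table used here pairs the other identifiers with symbols, so lists and markers by symbol, and promoter sequences, were not analysed, and members of the study's term tables were used in their place (values in those tables were not used). Members and lists were chosen with earlier results of these data known. Alternatives were DESeq2's test and size factors, other filters, thresholds and edgeR tests, a negative binomial model with theta 10, other sets of libraries, a replicate block, and leaving out each library. Those on reduced Day-2 groups, on all 14 libraries and on all 8 with the block, and the term lists, were added after seeing the data.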

Additional observations from a re-analysis of the deposited data

Results flagged for a closer look

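Among 74 groups of 5 Day-2 values examined with Dixon's ratio of gap to range (critical value 0.71), 4 held a library far from the others, and chance alone flags about 1 in 20 groups. For RRAGB the ratio was 1 in Day-2 replicate 3, which holds the lone count of that gene. The other 3 concern Day-2 replicate 5, whose summed level was low for the lists of cell division in the second cluster (ratio 0.782), actin binding (0.754) and cell cortex (0.745). These lists share members.

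For 7 of the 20 genes that changed most from Day 2, the DRY value also differed from both other Day-4 groups by edgeR's quasi-likelihood test. On the log2 scale, DRY minus IVC and DRY minus LACT were 12.70 and 11.98 for ENSBTAG00000003155, and 13.36 and 12.65 for ENSBTAG00000010666. They were −10.82 and −9.15 for ENSBTAG00000012014, and −11.37 and −7.22 for ENSBTAG00000001243. For 3 further genes without a symbol the pairs of values were −11.32 and −8.67, −10.57 and −10.41, and −9.69 and −10.04. The 5 genes that were lower were at 0 in DRY replicates 1 and 2 and had 0.212 to 13.3 CPM in DRY replicate 3, which the test did not use.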

How the results depend on the processing

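No pairing by replicate number was seen (correlations of deviations of −0.034 and 0.002 for the same numbers). With only 2 DRY libraries in the fit their deviations mirror each other, so this check cannot exclude pairing. A replicate block also leaves little replication in the 7 libraries of the fit to estimate spread from. With the replicate block, 2055 genes were called between DRY and Day 2 (912 higher, 1143 lower), 1932 of them among the 4688, with 235 genes of the lists called, and 37 genes between DRY and IVC. COX3 (adjusted p = 0.0538), RICTOR and EIF3J lost their calls with the block. The 10-count filter changed the sign of the median of the histone fold and fatty acid lists. With Day-2 replicates 1 and 5 alone the counts were 1573 (895 and 678), 183 of the lists and 8 of the 25 genes in place of 12. At a false discovery rate of 0.01 they were 2552 (1262 and 1290) and 257. All 14 libraries gave 7232 (3674 higher), and theta 10 gave 9918 (4606 and 5312). Leaving out a library gave 3740 to 4318 (1424 to 2052 higher, 2041 to 2638 lower), 308 to 378 of the lists and 7 to 13 of the 25 genes. Higher calls were 48.2% of all calls, and 38.1% without DRY replicate 1 or without DRY replicate 2.

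Between DRY and IVC, against 80, DESeq2 gave 913, all 14 libraries 825, the likelihood ratio test 476, theta 10 gave 5492, and leaving out a library 26 to 100. Between DRY and LACT, against 45, they gave 703, 556, 380, 4984 and 11 to 58, and the Day-4 libraries alone 81. With at least 10 counts in every library edgeR called 0 genes in both (668 and 450 at an unadjusted p under 0.05).

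Direction changed for 5 of the 25 genes, none of them called in the main test. Among the alternatives, AKT1S1 was called only with all 8 libraries and the block, and EIF3CL only with theta 10. Leaving out a library gave −0.17 (without DRY replicate 2) to 1.31 for AKT1S1, −1.68 to 0.30 (without DRY replicate 1) for SLC38A9, −0.037 (without DRY replicate 2) to 0.97 for EIF3CL and −0.78 to 0.22 (without Day-2 replicate 5) for TBC1D7. MIOS was at 0.088 with DESeq2's test, 0.089 with its size factors, 0.0059 with Day-2 replicates 1 and 5, and 0.069 with the 10-count filter, and TBC1D7 at 1.10 with the block and 0.56 with all 8 libraries and the block. DESeq2's size factors moved the median of all genes by 0.14, and leaving out the 10 genes of highest counts by −0.20. Genes at 3 counts or fewer in a library were taken as not detected there. The cause of these changes was not tested.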
